A study of Mus musculus with 6 samples.

Results

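The genes described here are the ligands and receptors of the tumour necrosis factor (TNF) superfamily in stimulated mouse CD4+ T cells. They were 39 genes named by symbol, and each was taken from the probe set that the array's annotation assigns to its symbol alone. All 39 were measured, among 22180 genes in all, and each had 1 such probe set. They comprised 15 ligands and 24 receptors.

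CD4+ T cells were isolated from mouse spleen with magnetic beads and cultured for 12 hours with antibodies against CD3 and CD28, which stand in for antigen and costimulation. All 6 samples received this stimulation at 1 µg/ml, in RPMI medium with 10% fetal bovine serum. The first group, ConCM, was cultured in control conditioned medium. PlGFCM was cultured in medium conditioned by HEK-293 clones, a human embryonic kidney line, that overexpress PlGF2, a form of placental growth factor of the VEGF family. IL6_ConCM received control conditioned medium with interleukin-6 at 20 ng/ml, which allows a comparison with a cytokine that drives helper T cell differentiation. The study asked how PlGF and IL-6 alter the stimulated cells. Each group had 2 replicate samples, so 6 arrays were compared. The labels give neither the strain, age and sex of the mice nor whether replicates came from separate animals. The p-values rest on the spread between samples, and how much of that spread is technical is not known. The labels state neither the level of PlGF2 in the medium nor the number of clones.

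Ligands of the TNF superfamily are mostly trimeric membrane proteins, and their receptors carry cysteine-rich repeats outside the cell. Receptors with a death domain can recruit adapters that activate caspases, whereas costimulatory receptors of T cells such as OX40, 4-1BB, CD27 and GITR bind TRAF adapters and activate NF-kappaB. T cells switch on many of these genes after engagement of the antigen receptor, and use the ligands to act on B cells, dendritic cells and each other.

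Levels are log2 values of the deposited table, and a log2 change is the difference of 2 group means on that scale. A gene was said to rise or fall where its Benjamini-Hochberg adjusted p from limma, over all 22180 genes, was under 0.05. Median levels of the 6 arrays ran from 5.47 to 5.51. The measured T cell markers Cd3e, Cd3d, Cd3g, Cd4, Cd5, Cd28 and Lat had log2 levels between 9.22 and 12.17 on every array, as the label of the cells states. One array stood apart in sex-linked transcripts: Xist, the RNA of the inactive X chromosome, was at 8.38 on PlGFCM replicate 2 and between 3.58 and 3.95 on the others. The calls of Tnfrsf26, Tnfrsf23 and the listed genes in PlGFCM, and the count of pairs, are also given without this array. Levels of different genes were not compared with each other, because probe sets differ in their response. The level of a gene in these bulk samples cannot separate a change in the number of cells that express it from a change in RNA per cell.

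Of the 39 members, 1 changed in PlGFCM against ConCM, the receptor Tnfrsf26, which rose. None changed in IL6_ConCM against ConCM or in PlGFCM against IL6_ConCM. Over all genes tested by limma, 0.433% changed in PlGFCM against ConCM, 0.352% rising and 0.0812% falling. With IL-6 0.113% changed, 0.0857% rising and 0.0271% falling, and 0.0316% rose in PlGFCM against IL6_ConCM. These shares rest on 96, 25 and 7 genes, and without PlGFCM replicate 2 the counts were 12, 12 and 0. At an unadjusted p under 0.05, 7, 7 and 6 of the 39 members differed (17.9%, 17.9% and 15.4%), against 8.74%, 5.62% and 4.37% of all genes. Of the 39 members, 31 lay at or above the median level of all probe sets. The shares of all genes, here and below, were not matched for level, and the members were chosen with earlier results of these data known. Of the 7 in PlGFCM against ConCM, 5 were higher and 2 lower, where 4.19% and 4.54% of all genes were. With IL-6 2 were higher and 5 lower, where 2.62% and 3% of all genes were, and between the treatments 5 were higher and 1 lower, where 2.56% and 1.81% were. The median log2 change of the members was 0.03, -0.06 and 0.09, and that of all genes was -0.01, -0.01 and 0.00. The median size of a member's change was 0.12 in each comparison, while the median gap between replicates was 0.12 in ConCM, 0.17 in PlGFCM and 0.09 in IL6_ConCM. The change is a difference between means of 2 arrays and the gap a difference between single arrays. A mean varies less than a single array, so these sizes are not directly comparable.

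**Figure D1:**
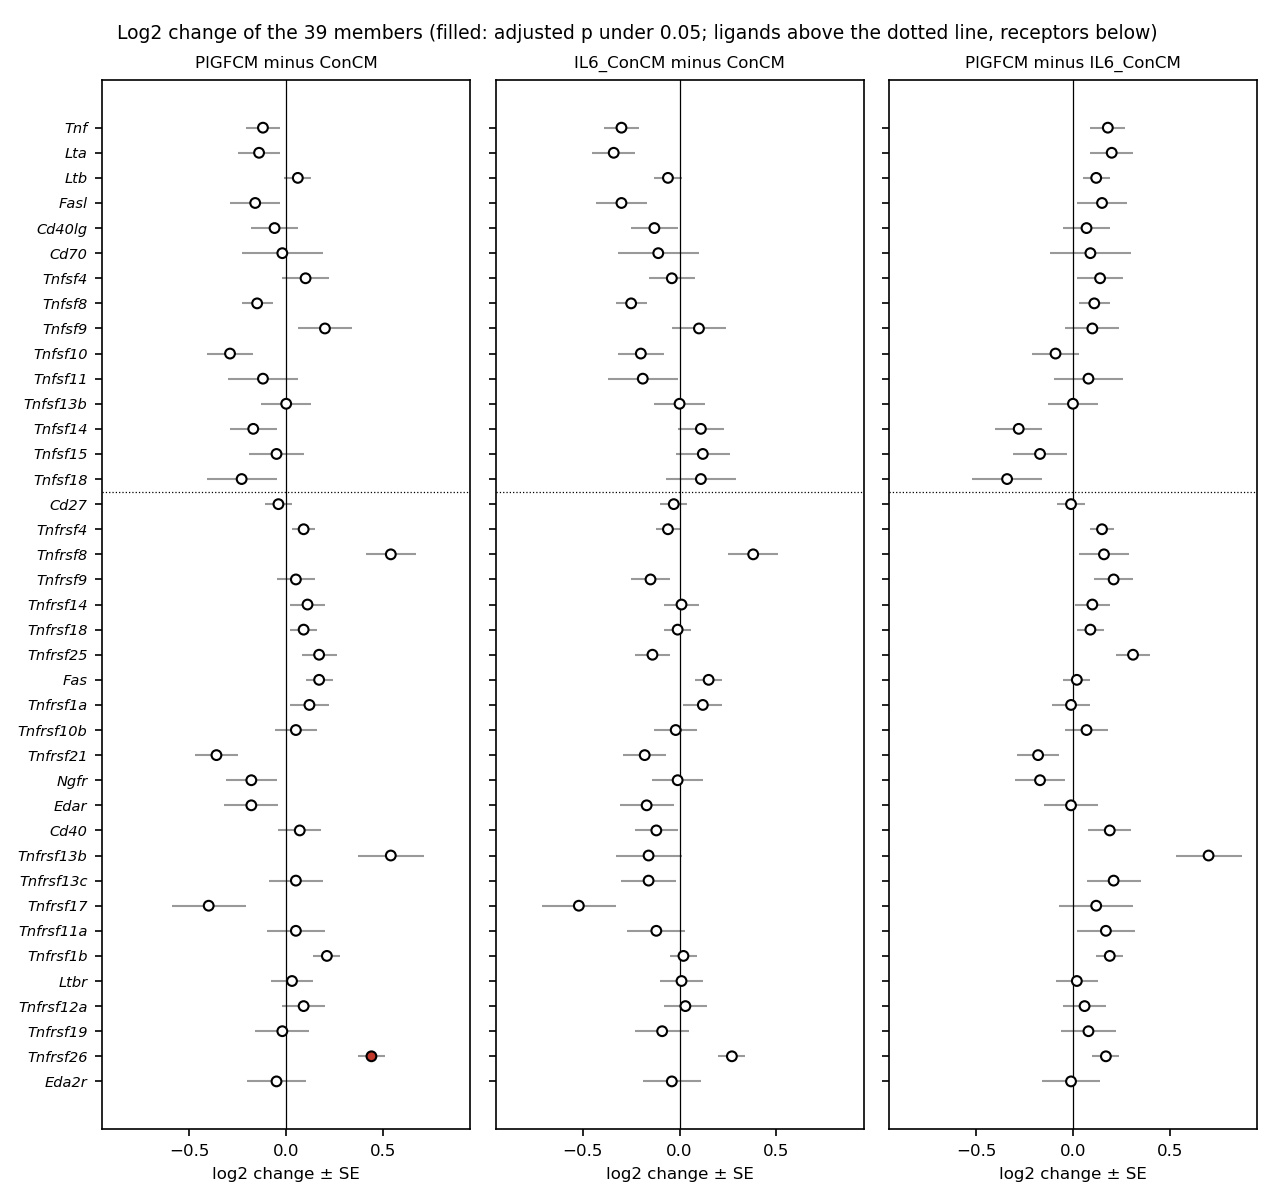
Log2 change with its standard error (x axis) of the 39 members (y axis, ligands above the dotted line and receptors below it) in the 3 comparisons. The filled point is Tnfrsf26 in PlGFCM minus ConCM at 0.44, the 1 member with an adjusted p under 0.05, and 33 of 39 members lie within 0.25 of 0 in that panel.

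Tnfrsf26 belongs to a group of mouse receptors that lie side by side on chromosome 7, in the order Tnfrsf26, Tnfrsf22 and Tnfrsf23, with 0 other protein-coding genes between them in the RefSeq gene table (assembly GRCm38.p6). Tnfrsf22 and Tnfrsf23 are known in mouse as decoy receptors for TRAIL, the ligand encoded by Tnfsf10, and lack a death domain. The log2 level of Tnfrsf26 was 10.08 and 10.20 on the ConCM arrays, 10.58 and 10.57 on those of PlGFCM and 10.36 and 10.45 on those of IL6_ConCM. All 3 groups were separate, with PlGFCM highest and ConCM lowest. In PlGFCM the gene was 1.35-fold higher than in ConCM, a log2 change of 0.44 ± 0.07 (SE, n = 2 against 2, adjusted p = 0.0206). Without PlGFCM replicate 2 the log2 change was also 0.44, but the adjusted p was 0.189, and the call was likewise lost without PlGFCM replicate 1 (0.186), ConCM replicate 1 (0.125) or ConCM replicate 2 (0.0657). It was lost as well without an intensity trend in the variance (0.377) and with every probe set tested singly (0.295). The log2 change was 0.27 ± 0.07 in IL6_ConCM against ConCM (adjusted p = 0.333) and 0.17 ± 0.07 in PlGFCM against IL6_ConCM (adjusted p = 0.998), which did not pass.

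Tnfrsf23, no member of the 39 but on a list of 11 further superfamily genes and partners, rose in both treatments. Its log2 level was 7.96 and 8.01 on the ConCM arrays, 8.76 and 8.58 on those of PlGFCM and 8.58 and 8.78 on those of IL6_ConCM. Both treated groups lay above ConCM on every array and overlapped each other. The log2 change was 0.68 ± 0.10 (SE) in PlGFCM, or 1.61-fold (adjusted p = 0.0142), and 0.70 ± 0.10 with IL-6, or 1.62-fold (adjusted p = 0.0186). These comparisons share the ConCM arrays. Without PlGFCM replicate 2 the change in PlGFCM was 0.77 (adjusted p = 0.0845), and it ranged from 0.59 to 0.77 when single arrays were left out. The call in PlGFCM was lost without ConCM replicate 1 (adjusted p = 0.0759), ConCM replicate 2 (0.0898) or PlGFCM replicate 1 (0.165) as well. With IL-6 the change ranged from 0.60 to 0.79, and the call held without IL6_ConCM replicate 1 (adjusted p = 0.0341) and was lost without any other single array (0.0595 to 0.144). The call with IL-6 was also lost with the arrays of the compared groups alone (adjusted p = 0.0608), and both calls were lost without an intensity trend in the variance (0.239 and 0.337) and with every probe set tested singly (0.295 and 0.433).

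Tnfrsf22, which lies between the other two, had log2 levels of 8.17 and 8.05 on the ConCM arrays, 8.03 and 8.01 on those of PlGFCM and 8.24 and 8.2 on those of IL6_ConCM. Its log2 change was -0.09 ± 0.09 in PlGFCM (adjusted p = 0.844) and 0.11 ± 0.09 with IL-6 (adjusted p = 0.996). It thus did not pass in either comparison. Tnfrsf22, Tnfrsf23 and Tnfrsf26 are related in sequence, so probe sets of one may bind RNA of another, which was not tested.

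TRAIL itself, encoded by Tnfsf10, kills target cells through death receptors. Its log2 level was 6.48 and 6.38 on the ConCM arrays, 6.22 and 6.05 on those of PlGFCM and 6.28 and 6.18 on those of IL6_ConCM. Both treated groups lay below ConCM without overlap, yet the log2 changes of -0.29 ± 0.12 (adjusted p = 0.492) and -0.20 ± 0.12 (adjusted p = 0.979) did not pass. Tnfrsf10b, the mouse death receptor for TRAIL, had log2 changes of 0.05 ± 0.11 and -0.02 ± 0.11, and its groups overlapped.

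**Figure D2:**
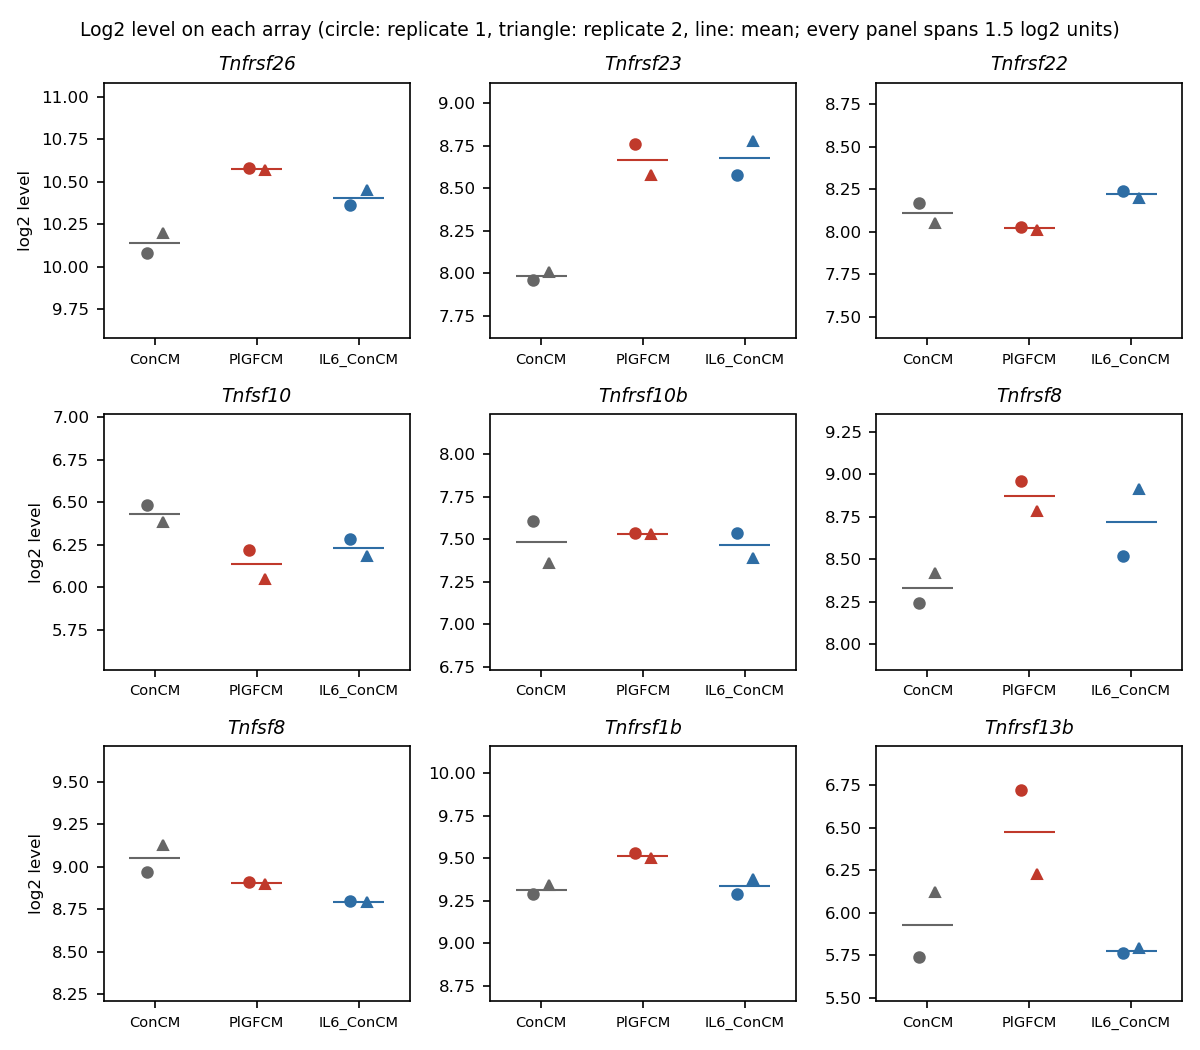
Log2 level (y axis) of 9 genes on each of the 6 arrays by group (x axis). Circles are replicate 1, triangles replicate 2 and lines the mean of a group, and every panel spans the same range. Tnfrsf26 and Tnfrsf23 lie higher in both treated groups than in ConCM, while Tnfrsf22 lies between 8.01 and 8.24 on all arrays.

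Tnfrsf8 encodes CD30, a receptor of activated T cells, and Tnfsf8 its ligand CD30L. Tnfrsf8 was at 8.24 and 8.42 on the ConCM arrays, 8.96 and 8.78 on those of PlGFCM and 8.52 and 8.91 on those of IL6_ConCM. Every treated array lay above both ConCM arrays. The log2 change was 0.54 ± 0.13 (SE) in PlGFCM, or 1.45-fold (adjusted p = 0.127), and 0.38 ± 0.13 with IL-6, or 1.3-fold (adjusted p = 0.642). Neither passed over all 22180 genes with all 6 arrays. In PlGFCM it passed with the 4 arrays of these groups alone (adjusted p = 0.0415) and without IL6_ConCM replicate 1 (0.0403) or replicate 2 (0.0418), where the log2 change was the same and only the estimate of the spread differed. Without PlGFCM replicate 2 the log2 change was 0.63 (adjusted p = 0.290). The change with IL-6 was 0.57 without IL6_ConCM replicate 1 and 0.18 without IL6_ConCM replicate 2.

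The ligand lay on the other side. Tnfsf8 was at 8.97 and 9.13 on the ConCM arrays, 8.91 and 8.90 on those of PlGFCM and 8.80 and 8.79 on those of IL6_ConCM. The 3 groups did not overlap, with ConCM highest. Its log2 change was -0.15 ± 0.08 in PlGFCM (adjusted p = 0.663) and -0.25 ± 0.08 with IL-6 (adjusted p = 0.618), so the ligand did not pass in either comparison.

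The promoters of Tnfrsf23, Tnfrsf8 and Tnfsf8 are shown because the first of these genes rose in both treatments, the second was highest in treated cells without passing and the third is its ligand. Each window holds the 250 bases before the start of the gene on its own strand, from RefSeq on build GRCm38.p6. The windows are chr7:143685876-143686125 for Tnfrsf23, chr4:145315165-145315414 for Tnfrsf8 and chr4:63861285-63861534 for Tnfsf8, all on the minus strand. Capitals mark a match to the AP-1 letters TGANTCA.
Tnfrsf23: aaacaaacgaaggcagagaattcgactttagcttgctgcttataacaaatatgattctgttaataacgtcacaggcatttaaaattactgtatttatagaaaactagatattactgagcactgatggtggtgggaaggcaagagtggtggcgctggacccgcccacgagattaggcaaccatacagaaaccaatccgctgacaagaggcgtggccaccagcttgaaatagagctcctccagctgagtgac
Tnfrsf8: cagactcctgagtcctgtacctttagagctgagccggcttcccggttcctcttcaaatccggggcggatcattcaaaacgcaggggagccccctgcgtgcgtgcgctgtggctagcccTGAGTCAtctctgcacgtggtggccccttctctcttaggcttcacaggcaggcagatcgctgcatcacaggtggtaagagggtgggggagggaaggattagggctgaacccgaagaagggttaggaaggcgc
Tnfsf8: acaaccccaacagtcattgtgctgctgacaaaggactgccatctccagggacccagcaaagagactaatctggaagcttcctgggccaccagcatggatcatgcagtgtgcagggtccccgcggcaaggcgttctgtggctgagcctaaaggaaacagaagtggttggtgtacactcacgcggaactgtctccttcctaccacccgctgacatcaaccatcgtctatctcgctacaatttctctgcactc
The AP-1 match of Tnfrsf8 lies at bases -132 to -126 from the start. The windows were also searched on both strands for the NF-kappaB letters, which are GGG and TTTCC with any 2 bases between them, and the STAT letters TTCNNNGAA, and these letters were not found in these 3 windows. Of 32851 windows of the same length in the table, 6.75% held the AP-1 letters, 1.41% the NF-kappaB letters and 7.02% the STAT letters. Of the 32 members with a window, 5, 3 and 8 held them in at least 1 window. These counts are of genes, which can have several windows, whereas the shares are of single windows. The counts thus cannot be set directly against the shares. Ltb, Tnfrsf25 and Tnfrsf9 held the NF-kappaB letters and the STAT letters. A match of letters is a description and not a binding site.

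TNF and the lymphotoxins lie together on chromosome 17 in the order Ltb, Tnf and Lta. Tnf encodes the founding inflammatory cytokine of the family and Lta lymphotoxin alpha, which signals through the same receptors. The log2 level of Tnf was 10.38 and 10.51 on the ConCM arrays, 10.45 and 10.19 on those of PlGFCM and 10.19 and 10.10 on those of IL6_ConCM. Lta was at 9.67 and 9.52 on the ConCM arrays, 9.40 and 9.50 on those of PlGFCM and 9.44 and 9.06 on those of IL6_ConCM. With IL-6 both genes lay below both ConCM arrays, with log2 changes of -0.30 ± 0.09 for Tnf (adjusted p = 0.493) and -0.34 ± 0.11 for Lta (adjusted p = 0.649), which did not pass. Lta depended on 1 array, as its change with IL-6 was -0.54 without IL6_ConCM replicate 1 and -0.15 without IL6_ConCM replicate 2. In PlGFCM the changes were -0.12 ± 0.09 and -0.14 ± 0.11, and the arrays overlapped for Tnf. Ltb, which anchors lymphotoxin at the membrane, was at 0.06 ± 0.07 in PlGFCM and -0.06 ± 0.07 with IL-6.

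Among the receptors of these ligands, Tnfrsf1b, which encodes the TNF receptor 2 of lymphocytes, was at 9.29 and 9.34 on the ConCM arrays, 9.53 and 9.50 on those of PlGFCM and 9.29 and 9.38 on those of IL6_ConCM. PlGFCM lay above the other groups on both arrays, and those groups overlapped. Its log2 change was 0.21 ± 0.07 against ConCM (adjusted p = 0.391) and 0.19 ± 0.07 against IL6_ConCM (adjusted p = 0.998). Tnfrsf1b and Tnfrsf8 are neighbours on chromosome 4. Tnfrsf1a, the death domain receptor for TNF, was at 0.12 ± 0.10 in both treatments against ConCM. Ltbr, the lymphotoxin beta receptor, was at 0.03 ± 0.11 and 0.01 ± 0.11. None of these receptors passed.

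Fasl and Fas, the ligand and the death receptor of activation-induced T cell death, lay on opposite sides of ConCM in both treatments. Fasl was at 6.20 and 6.39 on the ConCM arrays, 6.13 and 6.14 on those of PlGFCM and 6.13 and 5.86 on those of IL6_ConCM. Fas was at 9.68 and 9.71 on the ConCM arrays, 9.83 and 9.90 on those of PlGFCM and 9.93 and 9.77 on those of IL6_ConCM. The treated arrays lay below ConCM for the ligand and above it for the receptor without overlap. The log2 changes of Fasl were -0.16 ± 0.13 and -0.30 ± 0.13, and those of Fas 0.17 ± 0.07 and 0.15 ± 0.07, in PlGFCM and with IL-6. The adjusted p values ran from 0.557 to 0.920, so none passed.

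The OX40, 4-1BB, CD27 and GITR pairs, which costimulate T cells, did not pass in any comparison. Tnfrsf4, which encodes OX40, was at 11.05 and 10.95 on the ConCM arrays, 11.10 and 11.09 on those of PlGFCM and 10.93 and 10.97 on those of IL6_ConCM. Its largest log2 difference was 0.15 ± 0.06 in PlGFCM against IL6_ConCM (adjusted p = 0.998). Its ligand Tnfsf4, OX40L, was at 0.14 ± 0.12 in that comparison. Tnfrsf9, the receptor 4-1BB, and its ligand Tnfsf9 were at 0.05 ± 0.10 and 0.20 ± 0.14 in PlGFCM against ConCM. Tnfsf9 ranged from 7.21 to 7.56 within ConCM and from 7.41 to 7.77 within PlGFCM, so replicates differed more than the group means did.

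Cd27 and its ligand Cd70 were at -0.04 ± 0.07 and -0.02 ± 0.21 in PlGFCM, and at -0.03 ± 0.07 and -0.11 ± 0.21 with IL-6. Tnfrsf18, which encodes GITR, a receptor also known from regulatory T cells, was at 0.09 ± 0.07 and -0.01 ± 0.07, and lies next to Tnfrsf4 on chromosome 4. Its ligand Tnfsf18 had log2 levels between 2.51 and 3.16. Its log2 change of -0.34 ± 0.18 in PlGFCM against IL6_ConCM did not pass (adjusted p = 0.998). Cd40lg, the signal of helper T cells to B cells, was at 8.02 and 7.63 on the ConCM arrays, 7.75 and 7.77 on those of PlGFCM and 7.77 and 7.62 on those of IL6_ConCM. The ConCM arrays enclosed those of PlGFCM, and its log2 changes were -0.06 ± 0.12 and -0.13 ± 0.12.

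Tnfrsf25 and Tnfsf14 separated PlGFCM from IL6_ConCM without passing. Tnfrsf25 encodes DR3, a death domain receptor that costimulates T cells, and Tnfsf15 its ligand TL1A. Tnfrsf25 was at 7.94 and 7.85 on the ConCM arrays, 8.09 and 8.04 on those of PlGFCM and 7.76 and 7.75 on those of IL6_ConCM. PlGFCM lay above ConCM and IL6_ConCM below it, all without overlap. The log2 difference between the treatments was 0.31 ± 0.09 (adjusted p = 0.668), against -0.17 ± 0.14 for Tnfsf15.

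Tnfsf14 encodes LIGHT, which binds the receptors encoded by Tnfrsf14 and Ltbr. It was at 5.87 and 5.80 on the ConCM arrays, 5.61 and 5.71 on those of PlGFCM and 5.87 and 6.0 on those of IL6_ConCM. PlGFCM was lowest on both arrays, and the log2 difference from IL6_ConCM was -0.28 ± 0.12 (adjusted p = 0.998). Tnfrsf14, the receptor HVEM, was at 0.10 ± 0.09 in the same comparison.

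Across the 21 ligand and receptor pairs, in which some members occur more than once, 14 had a lower ligand and a higher receptor in PlGFCM than in ConCM, and 1 had the reverse, Tnfsf13b with Tnfrsf17, whose ligand was at 0.00. With IL-6 the corresponding counts were 8 and 6, and 3 of those 6 were pairs of Tnfsf13b, whose change was again 0.00. Without ConCM replicate 1 the 8 became 5. Counted by gene, 11 of 15 ligands were lower and 17 of 24 receptors higher in PlGFCM, where 53.6% of all genes were lower and 46.4% higher. With IL-6, 10 of 15 ligands were lower and 8 of 24 receptors higher, where 53.1% of all genes were lower and 46.9% higher. In PlGFCM against IL6_ConCM, 10 of 15 ligands and 18 of 24 receptors were higher, where 49.1% of all genes were. These are signs of small differences, and 1 of the 39 passed in 1 comparison. Without PlGFCM replicate 2 the pairs with a lower ligand and a higher receptor in PlGFCM numbered 11, with 9 lower ligands and 18 higher receptors. Without ConCM replicate 2 these pairs also numbered 11, with 8 lower ligands, near the share of all genes, and 17 higher receptors. With single arrays left out, the lower ligands in PlGFCM ranged from 8 to 13 and the pairs from 11 to 15. With IL-6, leaving out ConCM replicate 2 gave 8 lower ligands and 12 higher receptors. The 39 members were not independent of each other, and no test was made of these counts.

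**Figure D3:**
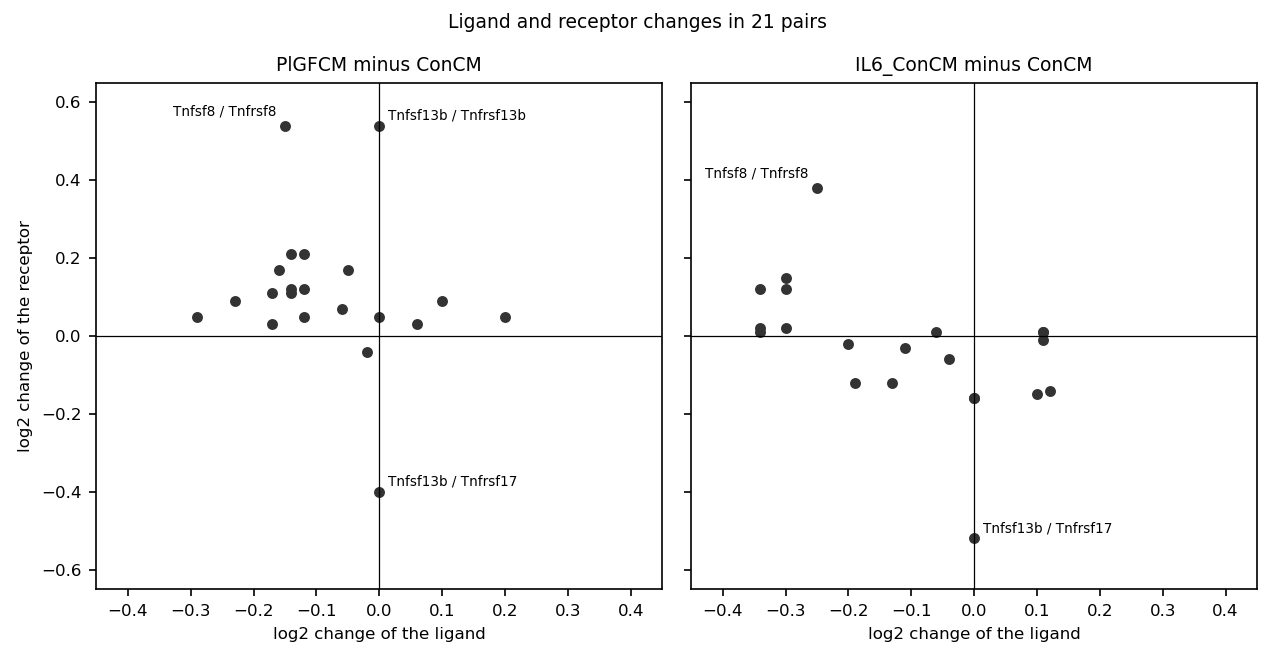
Log2 change of the ligand (x axis) and of the receptor (y axis) for 21 pairs in PlGFCM minus ConCM and in IL6_ConCM minus ConCM, each point being a pair and members recurring in several. In the first panel 14 pairs lie in the upper left, with a lower ligand and a higher receptor, and in the second 8 do.

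Groups did not overlap for 19 of 39 members in PlGFCM against ConCM, for 17 in IL6_ConCM against ConCM and for 16 in PlGFCM against IL6_ConCM, or 48.7%, 43.6% and 41.0%. Over all genes the shares were 38.2%, 34.1% and 30.1%. In PlGFCM 9 members lay above ConCM and 10 below, where 17.3% and 20.9% of all genes did. With IL-6 5 lay above and 12 below, against 15.7% and 18.4%, and in PlGFCM 12 lay above IL6_ConCM and 4 below, against 15.2% and 14.9%. PlGFCM replicate 1 held the highest value of 15 members and PlGFCM replicate 2 of 1, where they held that of 4407 and 3174 of all 22180 genes. The mean deviation of the 39 members from the mean of the 6 arrays was 0.07 on PlGFCM replicate 1 and between -0.05 and 0.05 on the others.

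**Figure D4:**
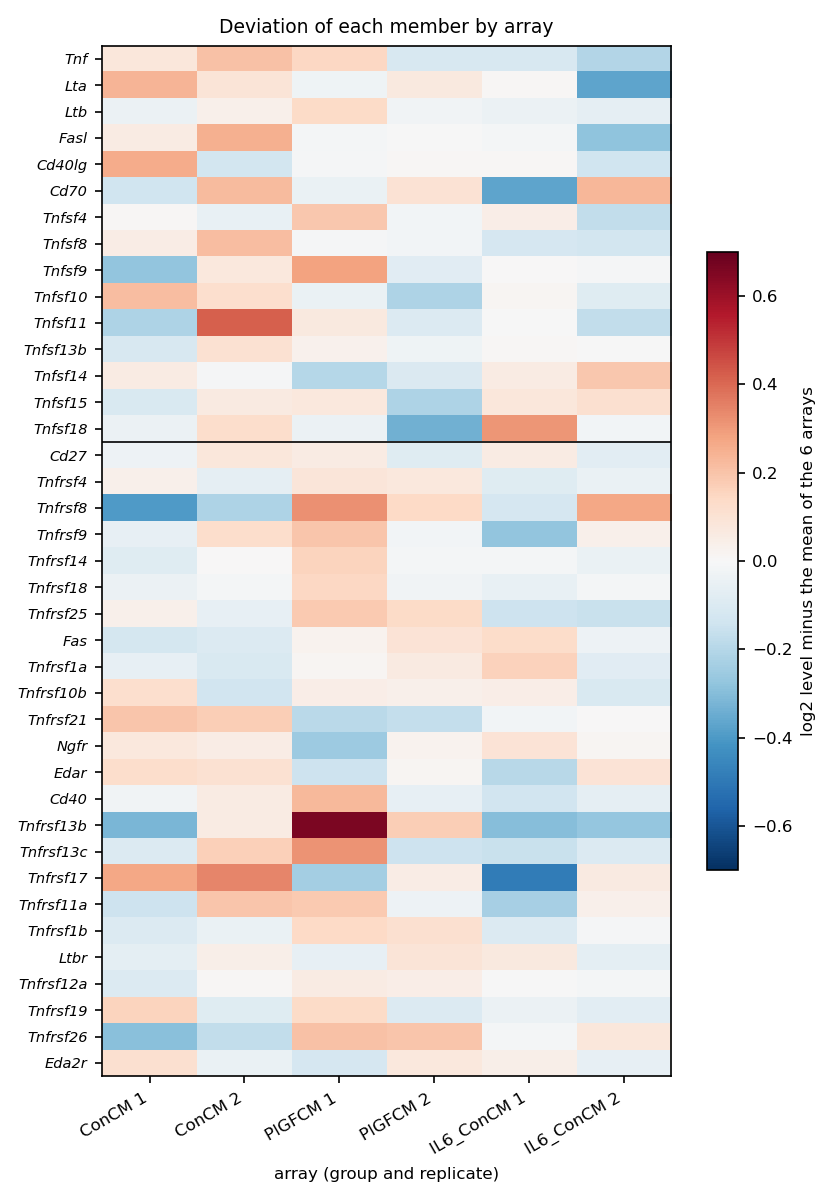
Log2 level of each member minus its mean over the 6 arrays (colour scale), by array (x axis) and member (y axis, ligands above the line). Tnfrsf26 and Tnfrsf8 are low on both ConCM arrays, and Tnfrsf13b is highest on PlGFCM replicate 1, at a level of 6.72.

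A group of 5 receptors is known mainly from B cells and antigen-presenting cells. Tnfrsf13b encodes TACI, a receptor for the B cell survival factor BAFF, which Tnfsf13b encodes. Tnfrsf13b was at 5.74 and 6.12 on the ConCM arrays, 6.72 and 6.23 on those of PlGFCM and 5.76 and 5.79 on those of IL6_ConCM. PlGFCM lay highest, but its replicates were 0.49 apart, the widest gap of any member in this group. The log2 change was 0.54 ± 0.17 against ConCM (adjusted p = 0.328) and 0.70 ± 0.17 against IL6_ConCM (adjusted p = 0.486), and neither passed. Against ConCM it was 0.29 without PlGFCM replicate 1, 0.79 without PlGFCM replicate 2 and 0.35 without ConCM replicate 1. Against IL6_ConCM it was 0.45 without PlGFCM replicate 1 and 0.94 without PlGFCM replicate 2.

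Tnfrsf17, which encodes the plasma cell receptor BCMA, was at 4.53 and 4.60 on the ConCM arrays, 4.02 and 4.31 on those of PlGFCM and 3.77 and 4.32 on those of IL6_ConCM. Treated arrays lay below ConCM, with log2 changes of -0.40 ± 0.19 (adjusted p = 0.595) and -0.52 ± 0.19 (adjusted p = 0.734). The mean level of Tnfrsf17, 4.26, lay below the 25th percentile of all probe sets, 4.34, where signal over background limits what a difference can show. The change with IL-6 was -0.24 without IL6_ConCM replicate 1 and -0.80 without IL6_ConCM replicate 2. Tnfrsf13c, the BAFF receptor, was at 0.05 ± 0.14 and -0.16 ± 0.14, and Cd40, the receptor for Cd40lg, at 0.07 ± 0.11 and -0.12 ± 0.11. Tnfsf13b itself was at 0.00 ± 0.13 in both. Cd40, Tnfrsf13b and Tnfrsf13c were each highest on PlGFCM replicate 1.

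The 9 measured markers of B and plasma cells had summed log2 levels of 56.2 to 56.9 in ConCM, 57.1 to 57.2 in PlGFCM and 56.7 to 57.1 in IL6_ConCM. The number of these markers below the median level of all probe sets was 3 in ConCM, 1 in PlGFCM and 2 in IL6_ConCM. In PlGFCM Ms4a1, which encodes CD20, and Fcer2a, which encodes the low-affinity IgE receptor CD23, fell, by 0.84 and 0.86 on the log2 scale (adjusted p = 0.0125 and 0.0206). Jchain, the joining chain of secreted antibodies, rose by 0.86 (adjusted p = 0.0208), and the other 6 markers did not pass. By single marker, 7 of the 9 were higher in PlGFCM than in ConCM, Blnk by 0.00, and 2 lower, with a median log2 change of 0.22. With IL-6, 6 were higher and 3 lower, with a median of 0.07. The calls of Ms4a1, Fcer2a and Jchain were lost without an intensity trend in the variance and with every probe set tested singly. None of these 3 calls held without PlGFCM replicate 1 or without PlGFCM replicate 2, nor without ConCM replicate 2, and without ConCM replicate 1 that of Fcer2a held (adjusted p = 0.0211). The part of B cell RNA in the values of Tnfrsf13b, Tnfrsf13c, Tnfrsf17 and Cd40 was not tested.

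The markers of myeloid and dendritic cells, 9 measured, had summed log2 levels of 51.6 to 52.4 in ConCM, 52.8 to 53.9 in PlGFCM and 51.8 to 52.4 in IL6_ConCM. Their sum was thus higher on both PlGFCM arrays. By single marker, 5 of the 9 were higher in PlGFCM than in ConCM and 4 lower, and none passed. The smallest p values were those of the monocyte marker Cd14 at 0.67 (adjusted p = 0.0806) and the macrophage marker Adgre1 at 0.38 (adjusted p = 0.334). Among the lower markers were Siglech at -0.23 and Itgam at -0.15. In ConCM, PlGFCM and IL6_ConCM, 3, 3 and 5 of the 9 lay below the median level of all probe sets. The 8 markers of NK and CD8 T cells had sums of 45.6 to 46.0, 45.7 to 47.1 and 46.8 to 47.5. Against ConCM, 3 of the 8 were higher in PlGFCM and 5 lower, with a median log2 change of -0.08. With IL-6, 6 were higher and 2 lower, with a median of 0.06. Only Gzma, the protease granzyme A, passed, and it rose in both treatments, by 0.93 and 1.12 (adjusted p = 0.0123 and 0.00692). Both calls of Gzma were lost without an intensity trend in the variance (0.127 and 0.162) and with every probe set tested singly (0.295 and 0.284). The call of Gzma in PlGFCM was lost when ConCM replicate 2 (adjusted p = 0.118) or either PlGFCM array (0.0882 and 0.143) was left out, and that with IL-6 without ConCM replicate 2 (0.0683). The part of these cells in the members' values was not tested.

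The other members did not pass in any comparison. Tnfrsf21, the death domain receptor DR6, was at 6.57 and 6.55 on the ConCM arrays, 6.19 and 6.21 on those of PlGFCM and 6.36 and 6.38 on those of IL6_ConCM. Replicates lay within 0.02 of each other, ConCM was highest and PlGFCM lowest. Its log2 change in PlGFCM was -0.36 ± 0.11 (adjusted p = 0.277), and it ranged from -0.37 to -0.35 when single arrays were left out. Its change with IL-6 was -0.18 ± 0.11.

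Tnfsf11, which encodes RANKL, a ligand of activated T cells that drives osteoclast formation, was at 5.56 and 6.19 in ConCM. This gap of 0.63 was the widest between replicates of any member in ConCM, and both treated groups lay inside it. Its receptor Tnfrsf11a, RANK, was at 0.05 ± 0.15 in PlGFCM and -0.12 ± 0.15 with IL-6. Ngfr, the neurotrophin receptor p75, was at -0.18 ± 0.13 and -0.01 ± 0.13, and Edar, an ectodysplasin receptor, at -0.18 ± 0.14 and -0.17 ± 0.14. Tnfrsf12a, the receptor Fn14, Tnfrsf19 and Eda2r had log2 changes between -0.09 and 0.09 in these comparisons. Of the 39 members, 8 lay below the median level of all probe sets. These were Cd70, Tnfsf13b, Tnfsf15, Tnfsf18, Tnfrsf17, Tnfrsf19, Eda2r and Edar.

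Genes that act downstream of the receptors were described from lists. Of 25 measured adapters and proximal signalling genes, such as the TRAF proteins, caspase 8 and the inhibitors of apoptosis, none passed in any comparison by limma. At an unadjusted p under 0.05, 5, 3 and 2 differed, or 20.0%, 12.0% and 8.0%, against 8.74%, 5.62% and 4.37% of all genes. The list's median log2 change was 0.07 in PlGFCM, 0.01 with IL-6 and 0.08 between the treatments. Traf6, an adapter of TNF family and IL-1 receptors, was at 9.42 and 9.35 on the ConCM arrays, 9.66 and 9.84 on those of PlGFCM and 9.30 and 9.37 on those of IL6_ConCM. PlGFCM lay above all other arrays, with log2 changes of 0.37 against ConCM (adjusted p = 0.0927) and 0.41 against IL6_ConCM (adjusted p = 0.199) that did not pass. Cflar, the caspase 8 inhibitor c-FLIP, was at 0.28 in PlGFCM (adjusted p = 0.221). With IL-6 the smallest p values were those of Map3k5, the kinase ASK1, at 0.24 (adjusted p = 0.771), and Tank, a TRAF-binding regulator of NF-kappaB, at -0.24 (adjusted p = 0.812). Between the treatments Traf5 followed Traf6, at 0.25 (adjusted p = 0.998).

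A list of NF-kappaB subunits and feedback genes, with 19 measured, also held other genes, such as the chemokines Ccl3 and Ccl4. The 2 that passed in PlGFCM against ConCM, Ccl3 and Ier3, both rose, and the list's median was 0.16. Of the 19, 14 were higher and 5 lower. No NF-kappaB subunit passed, and neither did Nfkbia (adjusted p = 0.353) or Tnfaip3 (0.179). Ccl3, a chemokine, rose by 1.37 (adjusted p = 0.0311), and Ier3, an early response gene, by 0.75 (adjusted p = 0.0208). Both calls were lost without an intensity trend in the variance (0.317 and 0.308) and with every probe set tested singly (0.436 and 0.371). That of Ccl3 was also lost under quantile normalization (0.0567) and with a robust variance prior (0.0896). With IL-6 and between the treatments none of the 19 passed by limma, and the medians were 0.01 and 0.11. At an unadjusted p under 0.05, 9, 4 and 7 of the 19 differed in the 3 comparisons, against 8.74%, 5.62% and 4.37% of all genes. With IL-6 the smallest p values were those of Ier3 at 0.55 (adjusted p = 0.147) and Bcl3, an atypical inhibitor of NF-kappaB, at 0.26 (adjusted p = 0.408). Between the treatments they were those of Ccl3 at 1.11 (adjusted p = 0.266) and Tnip1, a partner of the inhibitor A20, at 0.30 (adjusted p = 0.622). In PlGFCM Ccl3 lost its call without ConCM replicate 1 (adjusted p = 0.0518), ConCM replicate 2 (0.214) or PlGFCM replicate 2 (0.153, log2 change 0.91), whereas the call of Ier3 was lost when PlGFCM replicate 1 (0.171) or either ConCM array (0.107 and 0.124) was left out and held without PlGFCM replicate 2 (0.036).

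Of the 8 measured genes on the list of further superfamily members and partners, Tnfrsf23 was the 1 gene that rose, in PlGFCM and with IL-6, and none fell. Between the treatments none passed by limma and 1 differed at an unadjusted p under 0.05, Tnfrsf22 at -0.19 (adjusted p = 0.998), followed by Edaradd, the adapter of the ectodysplasin receptor, at -0.27 (adjusted p = 0.998).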

How the data were processed

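RNA of 6 CD4+ T cell samples was measured on Affymetrix whole transcript arrays after biotin labelling. The deposited values are log2 levels. The submitters' processing notes name Transcriptome Analysis Console as the authors' software, and the labels state neither its normalization nor a genome build. The table held 41345 probe sets, of which 23521 carried 1 gene symbol in the platform annotation, 1814 several and 16010 none. The brightest probe set stood for each of 22180 genes.

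Group differences were fitted to all 6 arrays and all genes together by limma 3.58.1 under R 4.3.3. The eBayes step used an intensity trend, and p-values were adjusted by Benjamini-Hochberg. The fit had 3 residual degrees of freedom, and with 2 samples against 2 an exact two-sided permutation test cannot go below p = 0.333. Precision is limited by how few arrays there are. The procedure was tested on data simulated from the fitted variance model, for PlGFCM against ConCM. It recovered 86.3% of changes of 1 on the log2 scale but 21.1% of those of 0.5. A member that did not pass was thus not shown to be unchanged. Alternatives covered normalization, filters, probe set choice, variance prior, array weights, a replicate block and arrays left out. Every member was named, in full where it passed or had 1 of the 6 smallest p values in a comparison. Of other lists, genes that passed were named, or otherwise the 2 with the smallest p. The members and lists were chosen with earlier results of these data known. Promoter windows are those of RefSeq on GRCm38.p6, and Tnfrsf26 was not matched to one.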

Additional observations from a re-analysis of the deposited data

How the results depend on the processing

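In PlGFCM against ConCM, 1 member was called; the count was 0 with every probe set tested singly, 0 without an intensity trend, 0 at an unadjusted p under 0.05 with at least a 2-fold change and 2 (Tnfrsf26 and Tnfrsf8) with the arrays of the compared groups alone. Leaving out single arrays gave 0 to 2, being 0 without either ConCM or either PlGFCM array and 2 without either IL6_ConCM array; the lone array of a group was then assumed to vary like the others. In the other comparisons 0 members were called by limma under all alternatives, where 7 and 6 differed at an unadjusted p under 0.05. With the replicate number as a block the counts were 1, 0 and 0. Under the block the calls of Ccl3 (adjusted p = 0.084) and Ier3 (0.055) in PlGFCM and of Tnfrsf23 with IL-6 (0.0589) were lost. Deviations of arrays that share a number correlated at -0.0386 for ConCM with PlGFCM, 0.1113 for ConCM with IL6_ConCM and 0.0329 for PlGFCM with IL6_ConCM, so the numbers were not taken as pairs. The members' median log2 change in PlGFCM against ConCM was -0.04 without PlGFCM replicate 1 and 0.09 without PlGFCM replicate 2. Over all genes the 96 calls in PlGFCM became 6 without an intensity trend, 174 with genes above the median level and 62 with the block; the 25 with IL-6 became 1, 53 and 16. Leaving out single arrays gave 12 to 107 in PlGFCM (62 and 15 without ConCM replicates 1 and 2, 22 and 12 without PlGFCM replicates 1 and 2), 2 to 41 with IL-6 (41 and 2 without ConCM replicates 1 and 2, 12 without either PlGFCM array and 6 without IL6_ConCM replicate 2) and 0 to 5 between the treatments, where 7 were called. The causes were not tested. Of the 39 members, 8 lay below the median level, where signal over background limits what a difference can show.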
